A study of Homo sapiens with 3 samples.

Results

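The keratins described here were KRT8, KRT18, KRT19, KRT7, KRT80, KRT23, KRT15, KRT17, KRT16 and KRT6A. Each was taken as the row of the deposited expression table whose Ensembl identifier carries that symbol, and these were 10 of the 60504 genes in the table. KRT20 was kept apart from them. Keratins are the intermediate filament proteins of epithelial cells, and a filament is built from pairs of a type I and a type II chain. The type II genes lie together on chromosome 12 with KRT18, and the other type I genes lie on chromosome 17. Simple epithelia such as the lining of the gut rely on KRT8, KRT18 and KRT19, with KRT7 in many ducts and glands, whereas KRT15 marks basal cells of stratified epithelia and KRT6A, KRT16 and KRT17 are switched on in wounded or stressed skin. KRT7, KRT8, KRT18 and KRT19 were therefore grouped as simple-epithelial keratins, KRT6A, KRT15, KRT16 and KRT17 as stratified or stress keratins, and KRT23 and KRT80 were put in neither class.

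The mRNA of DLD1, an established human colorectal cancer cell line, was sequenced from 3 libraries. These were 1 library of wild-type DLD1 control cells and 1 library from each of 2 BEX2-/- DLD1 clones, clone 1 and clone 2, in which BEX2 had been disrupted with CRISPR/Cas9. No other treatment was named for any group, each knockout library stands for a single clone, and nothing tells whether the control cells had passed through cloning. The control has no replicate, so any spread given below is that between the clones, and an exact permutation test of 1 library against 2 could not go below p = 0.333.

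The table listed BEX2 at 0 in every library, control cells included, so its mRNA did not check the labels. Values were FPKM, the sequenced fragments of a gene scaled for its exon length and for sequencing depth. The recovered depth was 35593989 to 47722374 reads per library, and 11572 to 11776 genes reached 1 FPKM. Of 8 colorectal epithelial markers, 7 passed a mean of 1 FPKM, with a summed level of 395 FPKM in control cells, 501 in clone 1 and 343 in clone 2. Within this list, VIL1, CDH17 and GPA33 were at least 2-fold higher in clone 1 than in control cells, where 1.06% of 11675 genes were, VIL1 was at least 2-fold lower in clone 2, where 0.737% of genes were, and all 3 were at least 2-fold lower in clone 2 than in clone 1, where 1.68% of genes were. The part of these differences in the keratin values was not tested. Of 8 squamous markers 2 passed the same limit, KRT10 and SERPINB5, while KRT14 and KRT1 were listed at 0 throughout, and the list summed to between 7.30 and 8.77 FPKM. None of 8 mesenchymal markers and none of 8 blood cell markers passed, and their sums were at most 1.03 FPKM and 0.811 FPKM in any library. In RNA from whole cultures, a smaller share of cells with a keratin and less of its mRNA per cell cannot be told apart.

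Keratin genes resemble each other and have many processed copies in the genome, so the sequences come before the values. Windows of 60 bases from the middle of the coding sequence show how much of a short read could separate a keratin from its relative. They were read from GENCODE release 29 transcripts (GRCh38), 5′ to 3′ on the coding strand, and capitals mark, in the first sequence of a set, bases that any other differs from and, in the others, bases unlike the first. The window of KRT18 joins exons 4 and 5 of 8 on the plus strand and falls between 52950865 and 52951498 on chromosome 12, and the pseudogene KRT18P17 at chr3:12787999-12788058 on the minus strand differs at 1 base.
KRT18: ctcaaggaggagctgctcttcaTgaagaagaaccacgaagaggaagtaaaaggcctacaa
KRT18P17: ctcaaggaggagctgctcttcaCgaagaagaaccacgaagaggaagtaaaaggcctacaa
The stress keratins KRT16 and KRT17 were set beside KRT14, their close relative. All 3 windows lie in exon 3 of 8 on the minus strand of chromosome 17, for KRT16 at chr17:41611377-41611436, for KRT17 at chr17:41622387-41622446 and for KRT14 at chr17:41584289-41584348, with 8 bases of KRT17 and 7 of KRT14 unlike KRT16.
KRT16: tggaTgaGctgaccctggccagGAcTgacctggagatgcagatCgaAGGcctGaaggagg
KRT17: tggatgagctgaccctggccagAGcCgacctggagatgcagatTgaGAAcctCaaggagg
KRT14: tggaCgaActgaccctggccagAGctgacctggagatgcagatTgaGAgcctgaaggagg
The KRT6A window, in exon 4 of 9 at chr12:52490894-52490953 on the minus strand, was matched by KRT6C at chr12:52471457-52471516 in every base and by KRT6B at chr12:52449794-52449853 in all but 1.
KRT6A: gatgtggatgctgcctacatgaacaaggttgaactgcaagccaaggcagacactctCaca
KRT6B: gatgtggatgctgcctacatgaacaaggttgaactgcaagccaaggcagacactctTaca
KRT6C: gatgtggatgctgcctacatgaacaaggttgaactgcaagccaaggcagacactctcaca

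Over whole coding sequences, 58.0% of the 50-base stretches of KRT18, 52.8% of those of KRT6A and 48.4% of those of KRT8 were also found in another annotated gene. The share was 23.9% for KRT16, 17.2% for KRT17, 13.5% for KRT7 and 7.89% for KRT23. It was lowest for KRT19, KRT15 and KRT80, at 2.09%, 1.29% and 1.224%. Only coding bases were compared, 1200 of 2336 exon bases for KRT19, 1368 of 7069 for KRT15 and 1356 of 4350 for KRT80. Matches on either strand counted, so genes that overlap a keratin on the opposite strand added to its share without being copies. Such genes were KRT8, with 26.3% of the stretches of KRT18, KRT7-AS, with 13.0% of those of KRT7, and AC004231.1, with all 7.89% for KRT23. Reads from the shared stretches of KRT18, KRT6A and KRT8 depend on how they were assigned. The deposited copies of KRT8 and KRT18 carried little signal. The 50 KRT8 pseudogenes together held 0.872% of the reads of KRT8 in control cells, 0.858% in clone 1 and 0.827% in clone 2. For KRT18, 67 pseudogenes held 0.767%, 0.873% and 0.835% of its reads. The copies at the highest level were KRT8P3, with 14.5, 11.5 and 16.3 FPKM in control cells, clone 1 and clone 2, KRT8P12, with 2.23, 2.40 and 1.61 FPKM, and KRT18P17, with 2.08, 1.54 and 2.77 FPKM. KRT6B and KRT6C were listed at 0 in all 3 libraries. Copies of KRT16 held 3, 3 and 0 reads in control cells, clone 1 and clone 2, beside 17, 2 and 11 reads of KRT16. Copies of KRT17 summed to 0.0445, 0.0284 and 0 FPKM in the same order, beside 0.208, 0.0221 and 0 FPKM of KRT17. For these 2 keratins the copies were thus not small beside the parent in clone 1.

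The mRNA of these 10 keratins was almost entirely that of KRT8, KRT18 and KRT19. The 10 genes summed to 1268 FPKM in control cells, 1276 in clone 1 and 1572 in clone 2, or 0.463%, 0.486% and 0.603% of all FPKM. KRT8, KRT18 and KRT19 made up 99.0%, 99.1% and 99.2% of that sum, and 96.9%, 90.2% and 98.7% of the sum of all 66 KRT genes, KRT20 included. The 4 stratified or stress keratins together came to 0.623 FPKM in control cells, 1.24 in clone 1 and 0.892 in clone 2, or 0.0492%, 0.0972% and 0.0568% of the sum. The classes thus did not overlap in summed level in any library, although KRT7, a simple-epithelial keratin, lay among the stratified or stress keratins in level.

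**Figure D1:**
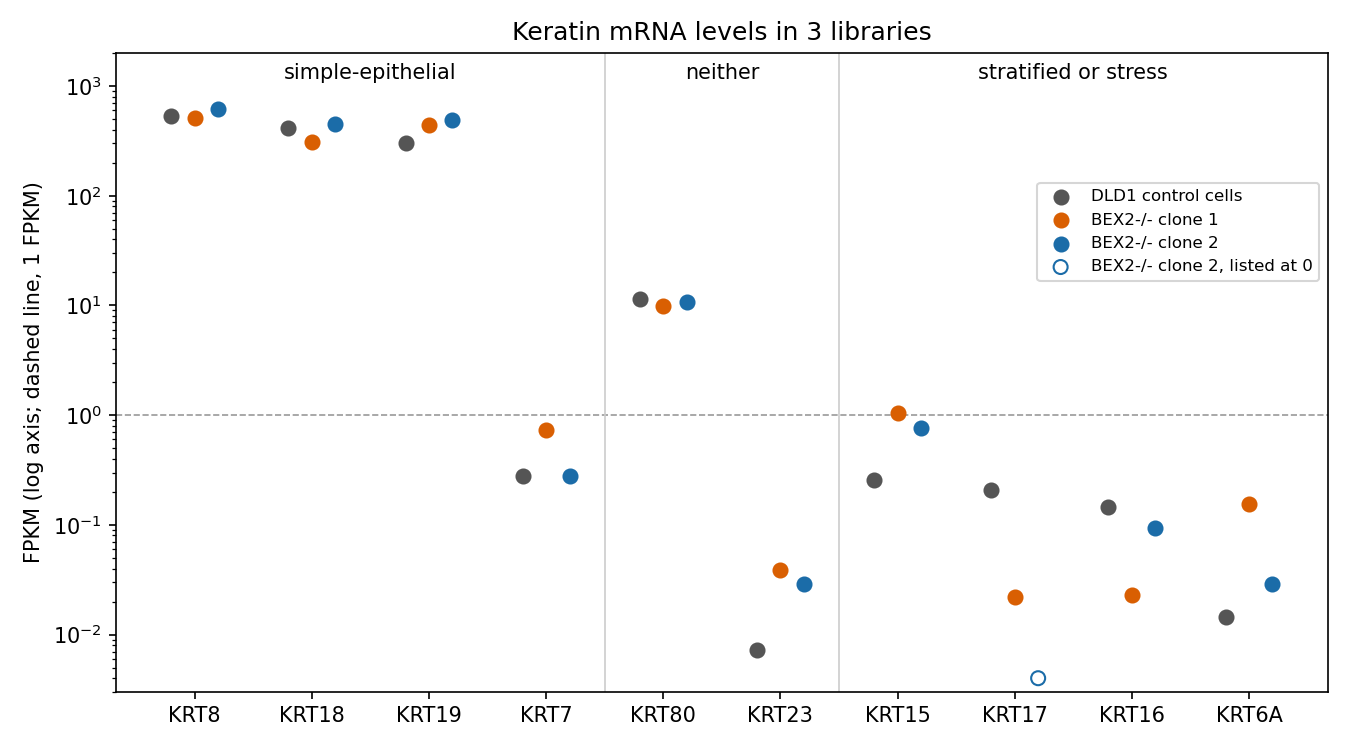
Level of each keratin in FPKM on a log axis, 1 point per library, with DLD1 control cells in grey, BEX2-/- clone 1 in orange and clone 2 in blue. KRT8, KRT18 and KRT19 sit between 305 and 611 FPKM, KRT80 near 10 FPKM and the other 6 at or below 1.04 FPKM; the open circle marks KRT17 listed at 0 in clone 2.

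The order of levels was KRT8, KRT18 and KRT19 in control cells and KRT8, KRT19 and KRT18 in both clones, at the merged exon lengths behind the FPKM values. With lengths of the principal transcripts, clone 2 kept the order of the control cells. Across the clones, KRT18 spanned 312 to 455 FPKM and overlapped KRT19, at 442 to 494 FPKM. Within each clone KRT19 was above KRT18 at merged exon lengths, so this overlap of ranges does not settle their order. KRT8, at 510 to 611 FPKM, overlapped neither. KRT80 followed in all 3 libraries at about 10 FPKM. Below it, KRT7 and KRT15 came next in every library, KRT7 first in control cells and KRT15 first in both clones, and the order of KRT16, KRT17, KRT6A and KRT23 rested on few reads.

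A keratin was called different between libraries when log2(FPKM + 1) differed by at least 2-fold and the mean of the control value and the clones' mean was at least 1 FPKM. KRT8, KRT18, KRT19 and KRT80 passed that mean and the other 6 keratins did not. None of these 4 was called in clone 1 against control cells, where 2.02% of 11675 genes were. In clone 2 against control cells 2.06% of genes and none of the 4 keratins were called, and none was called alike in both clones, where 0.325% of genes were. Between the clones, too, none of the 4 was called, against 4.19% of genes. The clones against control cells were also compared with limma on log2(FPKM + 1), with the single control library assumed to vary like the clones, and 0 of 11675 genes had a Benjamini-Hochberg adjusted p under 0.05, while 139 had an unadjusted p under 0.05, or 1.19%. KRT19 was among these 139 and the other 3 keratins were not.

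KRT8 (ENSG00000170421, chr12:52897187-52949954, minus strand) encodes the main type II keratin of simple epithelia. It stood at 538 FPKM in control cells, 510 in clone 1 and 611 in clone 2. Control cells thus lay between the clones, whose mean was 561 ± 71.5 FPKM (SD, n = 2). Clone 1 was at 0.949 of the control level (95% interval 0.942 to 0.956) and clone 2 at 1.14 times it (1.13 to 1.14). These and the other intervals of ratios are exact binomial intervals on recovered reads and cover counting error only. The limma log2 ratio of the clones to control cells was 0.05 ± 0.20 (SE; unadjusted p = 0.797, adjusted p = 1.00).

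KRT18 (ENSG00000111057, chr12:52948871-52952901, plus strand) encodes the type I partner of KRT8. It was at 412 FPKM in control cells, 312 in clone 1 and 455 in clone 2, so the clones lay on opposite sides of the control cells. Relative to control cells, clone 1 was at 0.757 (0.747 to 0.767) and clone 2 at 1.10 (1.09 to 1.12). Clone 2 exceeded clone 1 by 1.46 times (1.44 to 1.48), or 0.54 on the log2(FPKM + 1) scale, the largest difference between the clones among the 10 keratins on that scale. The limma log2 ratio was -0.13 ± 0.30 (SE; unadjusted p = 0.688, adjusted p = 1.00). Exons of KRT8 and KRT18 overlap on opposite strands over 525 bases, 16.3% of the exon bases of KRT18 and 7.63% of those of KRT8, and the library kit was not stated to keep strand. KRT18 made up 76.7% of the level of KRT8 in control cells, 61.1% in clone 1 and 74.5% in clone 2, or 44.3%, 35.3% and 43.0% with reads divided by the length of the principal transcripts.

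KRT19 (ENSG00000171345, chr17:41523617-41528308, minus strand) encodes the smallest type I keratin, which lacks the usual tail domain. It stood at 305 FPKM in control cells, 442 in clone 1 and 494 in clone 2, so that both clones lay above the control cells. The clones' mean of 468 ± 36.9 FPKM (SD, n = 2) exceeded the control value by 162 FPKM, more than the spread between the clones. Clone 1 was 1.45 times the control level (1.43 to 1.47) and clone 2 was 1.62 times (1.60 to 1.64), which is 0.53 and 0.69 on the log2(FPKM + 1) scale. The limma log2 ratio was 0.61 ± 0.17 (SE), with an unadjusted p of 0.0300 and an adjusted p of 1.00. KRT19 passed a 1.5-fold threshold in clone 2, as did 8.33% of genes, and not in clone 1, where 6.25% of genes passed it. It thus failed the correction over all genes and the 2-fold rule, with higher values in 2 of 2 clones.

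Among 275 protein-coding genes with a mean of at least 100 FPKM, the median log2 ratio was -0.16 in clone 1 and -0.11 in clone 2 against control cells. Of these genes, 2 were at least 1.4-fold higher in both clones (0.727%), and they were KRT19 and NQO1, which encodes a quinone reductase. This threshold, the set of abundant genes and the ranking that follows were chosen after the values were seen, so they only describe KRT19. Among all 11675 genes past the filter, 67 (0.574%) were at least 1.5-fold higher in both clones, and KRT19 was not among them. By the smaller of its ratios KRT19 ranked 1 of 275, at 0.53 on the log2 scale, with NQO1 next at 0.52. Relative to KRT18, the other abundant type I keratin, KRT19 was at 74.1% in control cells, 142% in clone 1 and 108% in clone 2, but 54.9%, 105% and 80.4% at principal transcript lengths, where KRT19 was below KRT18 in clone 2. Relative to KRT8, it was at 56.8%, 86.6% and 80.8%, or 24.3%, 37.1% and 34.6% at principal transcript lengths. Both ratios were higher in both clones than in control cells. The length of a gene is the same in every library, so the choice of length could not change this direction.

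KRT7 (ENSG00000135480, chr12:52232520-52252186, plus strand) encodes a type II keratin of ducts and glands that most colorectal epithelium lacks. It was at 0.278 FPKM in control cells, 0.734 in clone 1 and 0.282 in clone 2, from 54, 107 and 55 reads. Clone 1 stood apart, at 2.64 times the control level (1.89 to 3.74), while clone 2 was at 1.01 times it (0.683 to 1.503). On the log2(FPKM + 1) scale the ratio of clone 2 to clone 1 was -0.44, the lowest of the 10 keratins. KRT7-AS, an antisense gene that shares 282 exon bases with KRT7, was at 0.236, 0.149 and 0.0866 FPKM in the same order of libraries, and without strand its reads and those of KRT7 cannot be told apart there.

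**Figure D2:**
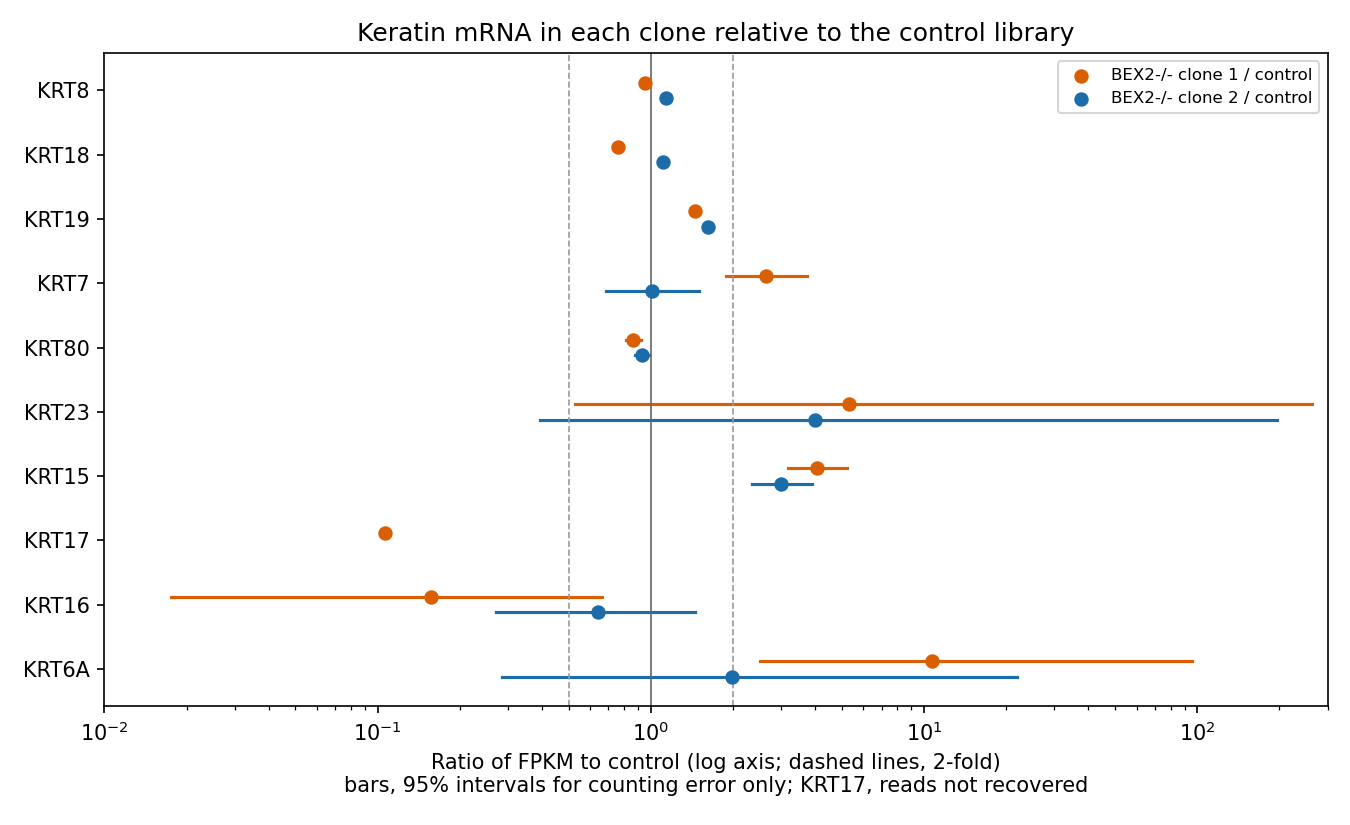
Ratio of FPKM in BEX2-/- clone 1 (orange) and clone 2 (blue) to DLD1 control cells for each keratin, on a log axis with 2-fold marked by dashed lines; bars are 95% intervals for counting error only, hidden behind the points for KRT8, KRT18 and KRT19. KRT19 lies to the right of 1 in both clones at 1.45 and 1.62, KRT15 lies past 2-fold in both at 4.06 and 3.01, and KRT23, KRT16 and KRT6A have wide intervals; KRT17 has no bar, since its reads were not recovered, and no point for clone 2, where it was listed at 0.

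KRT80 (ENSG00000167767, chr12:52168996-52192000, minus strand) encodes a type II keratin found in many epithelia. It was at 11.5 FPKM in control cells, 9.97 in clone 1 and 10.7 in clone 2, so that both clones lay slightly below control cells. Their ratios to control cells were 0.864 (0.810 to 0.922) and 0.930 (0.877 to 0.985). The limma log2 ratio was -0.14 ± 0.18 (SE; unadjusted p = 0.475, adjusted p = 1.00). KRT23 (ENSG00000108244, chr17:40922696-40937634, minus strand), a type I keratin, was at 0.00726, 0.0387 and 0.0289 FPKM, from 1, 4 and 4 reads. Its ratios of 5.33 (0.528 to 263) and 3.98 (0.394 to 196) were not resolved at this depth.

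KRT15 (ENSG00000171346, chr17:41513743-41522529, minus strand) encodes a type I keratin of basal cells and was the highest of the stratified or stress keratins in all 3 libraries. It was at 0.256 FPKM in control cells, 1.04 in clone 1 and 0.771 in clone 2, from 86, 262 and 260 reads. Both clones were above control cells, by 4.06 times (3.17 to 5.24) and 3.01 times (2.35 to 3.88), and the clones' mean of 0.906 ± 0.191 FPKM (SD, n = 2) exceeded the control value by 0.650 FPKM. Since 1 FPKM was added before the logarithm, these ratios became 0.70 and 0.50 on the log2(FPKM + 1) scale, and the mean of KRT15 was below 1 FPKM, so it was not called. It was called higher in both clones when each library was scaled to the same sum, as TPM, where 0.827% of 15841 genes were called higher in both. This scaling also raised every value, so that the added 1 and the minimum mean of 1 weighed less. With protein-coding genes alone scaled to the same sum it was called again, against 0.094% of 11708 genes.

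KRT15 and KRT19 are neighbours on the minus strand of chromosome 17, with a gap of 1087 bases between the end of KRT19 and the start of KRT15. Reads of KRT15 were 0.254% of those of KRT19 in control cells, 0.713% in clone 1 and 0.472% in clone 2. Both genes were higher in both clones, KRT15 by the larger ratio. Whether any of the KRT15 reads came from transcripts that ran on from KRT19 was not tested.

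KRT17 (ENSG00000128422, chr17:41619441-41624842, minus strand), a type I keratin of hair follicles and wounded skin, was at 0.208 FPKM in control cells and 0.0221 in clone 1 and was listed at 0 in clone 2. Clone 1 was at 0.107 of the control level, and no ratio was taken against the 0. Reads of KRT17 were not recovered, since its values were not whole multiples of a read at the annotated exon length, so this ratio has no interval. KRT16 (ENSG00000186832, chr17:41609778-41615899, minus strand), a type I keratin of wounded skin, was at 0.145, 0.0227 and 0.0931 FPKM, from 17, 2 and 11 reads. Clone 1 was at 0.157 of the control level (0.0176 to 0.661) and clone 2 at 0.643 of it (0.272 to 1.46). Both of these stress keratins were lower in the clones than in control cells, with KRT16 in clone 2 within counting error of control cells.

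KRT6A (ENSG00000205420, chr12:52487174-52493257, minus strand) encodes a type II keratin that pairs with KRT16 and KRT17 in wounded skin. It was at 0.0144 FPKM in control cells, 0.154 in clone 1 and 0.0286 in clone 2, from 2, 16 and 4 reads. Clone 1 was 10.7 times the control level (2.51 to 95.6), and clone 2 was 1.99 times it (0.285 to 22.0), an interval that holds 1. KRT6A was thus highest in clone 1, the library in which KRT16 was lowest. Its coding sequence is 97.9% identical to that of KRT6C and 97.5% to that of KRT6B, and KRT6A holds all the reads of this group, so how they were divided could not be checked.

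Since adding 1 FPKM hides ratios of genes below that level, ratios of FPKM were also taken without it, with values under 3 reads raised to 3 reads. In clone 1 against control cells 5 of the 10 keratins then differed by at least 2-fold, against 15.3% of 22491 genes. KRT6A, KRT7 and KRT15 were higher in clone 1 and KRT16 and KRT17 were lower. In clone 2 against control cells 2 keratins did, KRT15 higher and KRT17 lower, against 17.5% of genes. These 2 did so with the same sign in clone 1 and clone 2, against 4.65% of genes. For KRT17 the 3-read floor was set from its annotated exon length, at which its values were not whole reads, so this call is uncertain. Between the clones KRT16 was higher and KRT6A and KRT7 were lower in clone 2, 3 keratins against 20% of genes. Without the floor, the ratio of KRT16 was 4.10 (0.895 to 38.1), an interval that holds 1. Its 2 reads in clone 1 were raised to 3 for the call, so the ratio that was called was smaller. The ratios of KRT6A and KRT7, to which the floor did not apply in either clone, were 0.186 (0.0454 to 0.578) and 0.383 (0.272 to 0.536).

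All keratins named by this rule were among the 6 with a mean from 0.01 to 1 FPKM, where such ratios are common. Of 10579 genes in that range, 27.5% differed by 2-fold in clone 1 against control cells, beside 5 of the 6 keratins. In clone 2 it was 31.7% of genes beside 2 of the 6 keratins, and with the same sign in both clones 8.98% beside 2 of the 6. Between the clones it was 33.4% of genes beside 3 of the 6 keratins.

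The median log2 ratio of the 4 simple-epithelial keratins to control cells was 0.18 in clone 1 and 0.16 in clone 2. That of the 4 stratified or stress keratins was 0.01 and -0.02, and that of all 11675 genes past the filter was 0.04 and -0.01. The 4 stratified or stress keratins and KRT7 lay below a mean of 1 FPKM, where the added 1 FPKM draws log2 ratios toward 0. KRT6A, at 10.7 times the control level in clone 1, thus had a log2 ratio of 0.19. Medians near 0 for the stratified or stress class therefore do not show that its members were unchanged. Between the clones the medians were 0.21 for the simple-epithelial keratins, -0.10 for the stratified or stress keratins and -0.05 for all genes. Both comparisons with control cells used the same control library. The members of each class did not move together. In clone 1 the simple-epithelial ratios ran from -0.40 for KRT18 to 0.53 for KRT19, and the stratified or stress ratios from -0.24 for KRT17 to 0.70 for KRT15. In clone 2 they ran from 0.00 for KRT7 to 0.69 for KRT19 and from -0.27 for KRT17 to 0.50 for KRT15. The simple-epithelial median in clone 1 turned to -0.08 when KRT7 was left out by a mean of at least 5 FPKM, and the stratified or stress median in clone 1 to -0.16 when KRT80 was added to that class.

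Type II and type I keratins were then summed, since the chains pair in filaments. The type II sum was 76.5% of the type I sum in control cells, 69.0% in clone 1 and 65.5% in clone 2. Within type I, KRT19 took 42.5% in control cells, 58.5% in clone 1 and 52.0% in clone 2, while KRT18 took 57.4%, 41.3% and 47.9%. KRT19 thus exceeded KRT18 in both clones at merged exon lengths. Such comparisons between genes depended on gene length. The merged exons of KRT8 span 6881 bases and its principal transcript 1755, against 3218 and 1420 for KRT18 and 2336 and 1390 for KRT19. With reads divided by the principal transcript instead, the type II sum was 146%, 139% and 129% of the type I sum, again lowest in clone 2 and highest in control cells. KRT19 was then at 54.9% of KRT18 in control cells, 105% in clone 1 and 80.4% in clone 2, so that it exceeded KRT18 in clone 1 and not in clone 2. Comparisons between these genes may also depend on how shared reads were assigned, which was not tested. Of their 50-base coding stretches, 48.4% for KRT8, 58.0% for KRT18 and 2.09% for KRT19 were found in another gene.

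**Figure D3:**
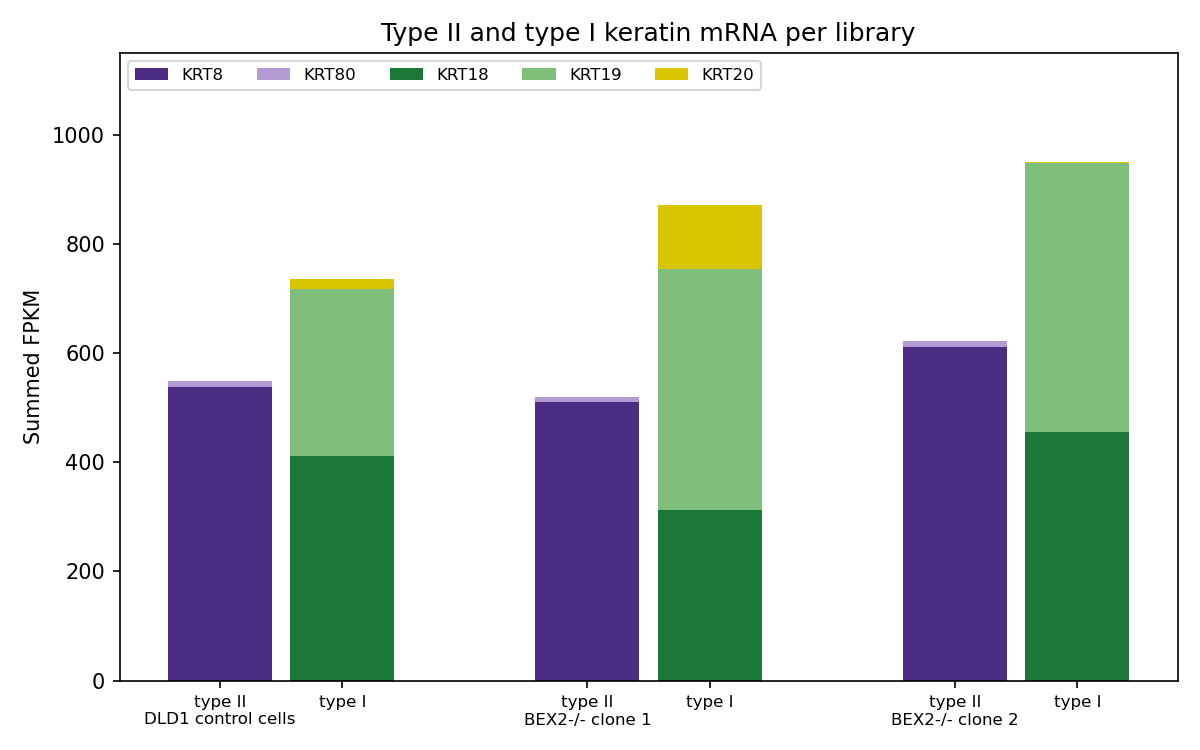
Summed FPKM of type II and type I keratins in each library, stacked by gene, with KRT20 drawn on top of type I although it is not counted in the type I sums. KRT19 (light green) is larger than KRT18 (dark green) in both BEX2-/- clones and smaller in DLD1 control cells at these merged exon lengths, with the order in clone 2 turned at principal transcript lengths, and KRT20 (yellow) is visible in control cells and clone 1.

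KRT20, a type I keratin of differentiated gut epithelium, was at 18.9 FPKM in control cells, 117 in clone 1 and 0.931 in clone 2. Added to type I it made up 2.57%, 13.4% and 0.0979% of that sum, and the type II sum became 74.6%, 59.8% and 65.5% of it, lowest in clone 1. Of the 56 other KRT genes in the table, 30 were listed at 0 in all 3 libraries and 24 stayed below 1 FPKM. The remaining 2 were KRT20 and KRT10, a type I keratin of the upper epidermis, which was at 7.996, 6.98 and 5.80 FPKM. No keratin outside the 10 thus reached the level of KRT8, KRT18 or KRT19 in any library.

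Keratin filaments attach to desmosomes and hemidesmosomes through linker proteins, and 20 genes of such partners were examined with the same 2-fold rule. Of these, 16 passed the mean of 1 FPKM. In clone 1 against control cells 1 was higher, where 1.06% of genes were, and none lower. This was DSC2, a desmosomal cadherin, at 2.08 FPKM in control cells, 6.87 in clone 1 and 3.36 in clone 2. None was called in clone 2 against control cells, and none in both clones. Between the clones 1 was higher in clone 2, where 2.51% of genes were, and none lower. It was PERP, a desmosomal membrane protein and the most abundant partner, at 348, 223 and 616 FPKM. PERP was thus lowest in clone 1 and highest in clone 2, an order that KRT8 and KRT18 also had across these 3 libraries. SFN, which encodes the adaptor 14-3-3 sigma that binds keratins, was next in level at 252, 208 and 257 FPKM and had that order too, as did PKP4. Most partners past the mean of 1 FPKM did not. DSP, PLEC, PPL, EVPL, PKP2, DSG2, DSC2, FAM83H, TCHP and SPTAN1 were instead highest in clone 1. The share of all genes with the order of PERP was not taken.

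Other intermediate filament genes and regulators of keratin genes gave no call. Of 15 other intermediate filament genes 4 passed the mean of 1 FPKM, led by the nuclear lamins LMNA, at 86.4, 81.4 and 108 FPKM, and LMNB2, at 71.0, 61.0 and 60.4 FPKM. VIM, the vimentin gene of mesenchymal cells, was at 0.0424, 0.0113 and 0.0338 FPKM, and the other cytoplasmic filament genes on the list did not exceed 1.53 FPKM in any library. Of 15 regulators 11 passed the mean. The highest were KLF5, an epithelial transcription factor, at 35.1, 53.2 and 27.1 FPKM, and CDX2, the intestinal homeobox factor, at 33.3, 43.2 and 24.0 FPKM. Both were highest in clone 1 and lowest in clone 2. TP63, the master regulator of stratified epithelia, was listed at 0 in control cells and clone 1 and at 0.00843 FPKM in clone 2.

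**Figure D4:**
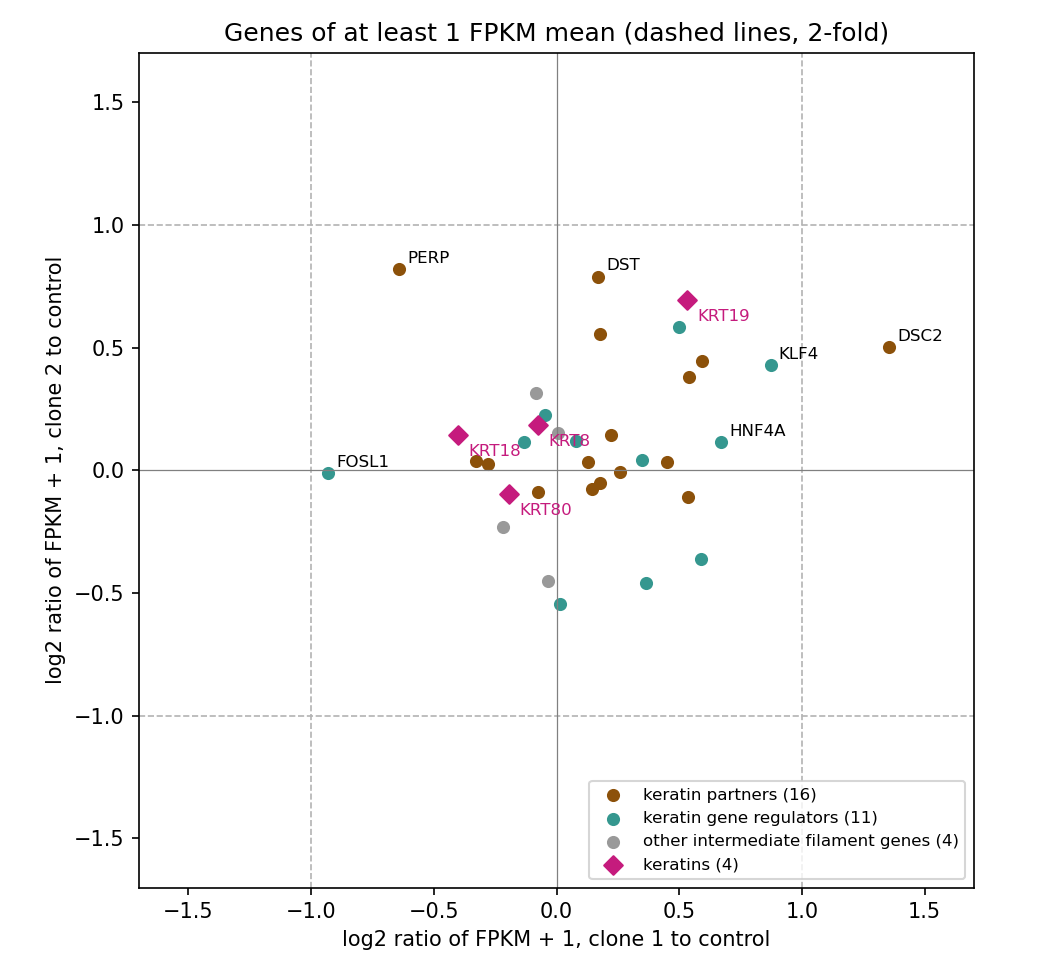
Log2 ratio of FPKM + 1 to DLD1 control cells in BEX2-/- clone 1 (horizontal axis) and clone 2 (vertical axis) for the 4 keratins (diamonds) and the partner, regulator and other filament genes (circles) with a mean of at least 1 FPKM; the control library is shared by both axes. KRT19 lies at 0.53 and 0.69, inside the dashed 2-fold lines, and DSC2 alone lies past them, in clone 1.

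The genes closest in pattern to the keratins with the highest and lowest log2(FPKM + 1) ratio of clone 2 to clone 1 were sought. The search covered 5995 protein-coding genes with a mean of at least 5 FPKM. Likeness was the distance between the pairs of log2(FPKM + 1) ratios of clone 1 and clone 2 to control cells, over 3 libraries. For KRT18, highest in clone 2 against clone 1, they were ZNF598, HSPB11 and PEMT, at distances of 0.021, 0.023 and 0.026. For KRT7, the lowest, they were RAD17, DLG3 and RAB27B, at 0.0093, 0.012 and 0.018. KRT7 lay below 1 FPKM, and its ratio of 2.64 in clone 1 against control cells was 0.44 on this scale. Its likeness to genes of at least 5 FPKM therefore holds on this scale only. With 3 libraries such distances describe these libraries only.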

How the data were processed

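Each of the 3 libraries (1 of control cells, 1 per BEX2-/- clone) was prepared by the authors from total RNA with a TruSeq RNA kit and sequenced on an Illumina instrument. The authors deposited 1 table of FPKM values per gene for the 3 libraries. The submitters' processing notes name Trim Galore 0.3.7, STAR 2.5, Cufflinks 2.2.1, DESeq 1.22.1 and hg19 for the authors' own steps, with no role or order.

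Symbols, classes of genes and positions came from GENCODE release 29 (GRCh38), in which 56996 of the 60504 identifiers were found. Positions are those of that annotation and not of hg19. Reads were recovered as FPKM times the merged exon length in that annotation times the depth at which low values became whole. Low values were whole within 0.02 for 98.7% to 98.8% of values of genes with a single transcript and for 88.5% to 89.3% of those of other genes. Reads of KRT8, KRT18, KRT19 and KRT80 were too many for this check and were taken from the same length and depth.

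Ratios were taken as log2(FPKM + 1), and called at 2-fold where the control value and the clones' mean averaged 1 FPKM or more. Medians of the classes used all members. limma 3.58.1 (R 4.3.3, eBayes with trend, 1 residual degree of freedom) compared the clones with the control, with Benjamini-Hochberg adjustment over 11675 genes. limma was chosen because FPKM values are no counts. P-values rest only on the spread between the clones, moderated toward a trend over all genes, and this spread may be technical. The methods were tested on simulated data, where 200 of 200 genes given a 4-fold change were found by the 2-fold rule with 0 false calls, and by limma with 15 false calls among 11720 genes. The simulation gave every gene the same noise in each library, and only genes with a mean of at least 5 FPKM were changed. It therefore does not measure power or false calls in the real libraries. Intervals are 95% exact binomial (Clopper-Pearson) intervals of recovered reads. Other steps used Python 3.11.15, pandas 2.3.3, numpy 2.4.6, matplotlib 3.10.9 and scipy 1.17.1.

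The genes named were the 10 keratins, KRT genes at 1 FPKM in any library, the 3 highest copies, list genes called in any comparison, the 2 highest genes of each of the partner, other filament and regulator lists, and the 3 genes closest to the keratins with the highest and lowest ratio of clone 2 to clone 1. Other genes named were chosen after their values were seen. The keratins, the lists of partners, other filament genes, regulators and markers, and the comparisons were chosen with earlier results of these data known. The alternatives tried were median-ratio and TPM scaling, a pseudocount of 0.1 FPKM, no filter, a mean of 5 FPKM, protein-coding genes only, a 1.5-fold threshold, other class membership, reads of copies added to their parents, limma without trend and each clone left out. Ratios with a 3-read floor, principal transcript lengths and KRT20 added to type I were chosen after seeing the data. So were the set of genes with a mean of at least 100 FPKM, their ranking and the 1.4-fold threshold. Protein and promoter sequences were not used here. One sequence comparison is not reported here.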

Additional observations from a re-analysis of the deposited data

How the results depend on the processing

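No keratin was called at 2-fold with a pseudocount of 0.1 FPKM, with scaling by the median ratio, with no filter, with a mean of at least 5 FPKM or with either clone left out (0 keratins without either clone). Most of these settings could hardly have added a call. The smaller pseudocount kept the mean of 1 FPKM, and no filter kept the added 1 FPKM. A mean of at least 5 FPKM could only remove keratins, and leaving out a clone repeated the comparison of the other clone with control cells. KRT15 was the 1 keratin called in clone 1, in clone 2 and in both after scaling to TPM, and likewise (1, 1 and 1) with protein-coding genes only, and KRT19 the 1 called at 1.5-fold in clone 2. Ratios with a 3-read floor, chosen after seeing the data, gave 5 keratins in clone 1, 2 in clone 2, 3 between the clones and 2 in both clones. For clone 1, clone 2 and clone 2 against clone 1, the simple-epithelial medians of 0.18, 0.16 and 0.21 became 0.15, 0.18 and 0.27 with scaling by the median ratio, -0.076, 0.18 and 0.26 with a mean of at least 5 FPKM (3 keratins left), and 0.044, 0.14 and 0.16 with KRT23 added. The first 2 became 0.29 and 0.24 as TPM and 0.29 and 0.23 with protein-coding genes only, and the first 0.23 with the smaller pseudocount. The stratified or stress medians of 0.01, -0.02 and -0.10 became 0.076, -0.086 and -0.34 with the smaller pseudocount, 0.052, -0.049 and -0.23 with protein-coding genes only, and -0.16, -0.067 and -0.032 with KRT80 added. As TPM they were 0.049 in clone 1 and -0.22 between the clones, and a mean of at least 5 FPKM left no such keratin. The type II share of type I became 146%, 139% and 129% with principal transcripts, where KRT19 was also at 80.4% of KRT18 in clone 2 and not at 108%, and 59.8% in clone 1 with KRT20. limma without a filter called 1 keratin, KRT19, and 240 genes, in a fit where most residual variances were 0. Other limma settings called 0 keratins, and limma without a clone has no residual degrees of freedom and was not run. No paired analysis was possible because the control has 1 library. The cause of these shifts was not tested. With 1 control library, differences in keratin level from clone to clone and from knockout to control cannot be told apart, and below 1 FPKM the reads limit every ratio.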
